A study of Homo sapiens with 8 samples.

Results

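DDIT4, the 3 sestrin genes SESN1, SESN2 and SESN3, and 6 core genes of the mTORC1 pathway (TSC1, TSC2, RHEB, DEPTOR, MTOR and RPTOR) were followed across 8 libraries of MDA-MB-231 cells. The 10 genes were found by symbol among the 19583 rows of the deposited table, 1 row each, and all 10 were among the 12645 genes tested (those whose mean over the libraries was 1 normalised read count or more). MDA-MB-231 is an established triple-negative breast carcinoma line of human origin. The cells were grown in DMEM with serum and carried a scrambled control hairpin (shSC) or a hairpin labelled as directed at CHD4 (shCHD4). They were kept at 20% or 1% O2 for 24 hours, which gave 4 groups of 2 libraries of polyadenylated RNA: shSC at 20% O2, shSC at 1% O2, shCHD4 at 20% O2 and shCHD4 at 1% O2. The study asked whether CHD4, the ATPase of the NuRD chromatin remodelling complex, takes part in the activity of the hypoxia-inducible factors (HIFs). The labels do not say whether the cells of a label were a clone or a pool, or whether replicate libraries stem from separate cultures, so errors and p-values cover only the spread among the libraries at hand, and that spread may be technical.

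mTORC1 is a protein kinase complex built on MTOR, its catalytic subunit, and RPTOR (raptor), the scaffold that recruits substrates. It drives protein synthesis and growth when the small GTPase RHEB, in its GTP-bound form on the lysosome, activates it. The TSC1 and TSC2 proteins form a complex that switches RHEB off. DDIT4 (also called REDD1) is a stress- and hypoxia-induced inhibitor that acts through TSC2. Sestrins hold back the amino acid branch of the pathway by binding the GATOR2 complex, and SESN2 is also a leucine sensor. DEPTOR binds MTOR directly and inhibits it. Of the 10 genes, DDIT4, the sestrins, TSC1, TSC2 and DEPTOR are thus brakes, whereas RHEB, MTOR and RPTOR are the activator and the core of the kinase complex.

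The 10 genes were chosen by symbol with their log2 differences in these same libraries in view, the large difference of DDIT4 with 1% O2 under the shCHD4 label among them. The values, log2 differences and standard errors of the 10 genes are therefore a description, and no p-value is attached to them. Where the number of them past an adjusted p of 0.05 (limma, adjusted over all 12645 genes) is given, the share of all genes past that threshold stands beside it, and nothing is read from the comparison. Normalised read counts are not corrected for gene length, and differences are on the log2(count + 0.5) scale.

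The libraries held between 24947627 and 31903585 gene-assigned reads. CHD4 RNA was not lower under the shCHD4 label: at 20% O2 its mean was 299 in both labels (log2 difference 0.0018, limma adjusted p = 0.968), and at 1% O2 the means were 279 for shSC and 293 for shCHD4 (0.071, limma adjusted p = 0.129). A difference between shSC and shCHD4 is therefore stated for the libraries that carry those labels. Of the line's markers, VIM lay between 3471 and 6856, and ESR1 and PGR had no more than 4 reads in any library. CDH1 and FOXA1, also listed as absent or low, had at most 8 and 13 reads. EPCAM, GATA3 and ERBB2 were listed as absent or low too, but reached 225, 394 and 1574 reads in a library. In bulk RNA, a change in the level per cell and a change in the mix of cells cannot be told apart.

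The bases just before the transcription start are shown for 3 members whose RNA behaved differently: DDIT4, which differed with both O2 and label, SESN2, which differed mainly with label, and RPTOR, which differed mainly with O2. Each is the 250 bases before a RefSeq start in build GRCh38.p14 (the deposited table was made on hg19), read 5′ to 3′ on the gene's strand. Capitals mark the core of the hypoxia response element, searched as ACGTG and GCGTG on both strands. DDIT4 lies at chr10:72273674-72273923 (plus strand), SESN2 at chr1:28259268-28259517 (plus strand) and RPTOR at chr17:80544588-80544837 (plus strand).
DDIT4: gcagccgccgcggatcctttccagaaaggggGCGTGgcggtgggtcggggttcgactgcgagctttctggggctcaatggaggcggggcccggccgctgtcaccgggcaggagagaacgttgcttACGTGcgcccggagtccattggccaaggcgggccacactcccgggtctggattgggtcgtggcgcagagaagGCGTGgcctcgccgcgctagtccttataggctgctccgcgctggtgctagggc
SESN2: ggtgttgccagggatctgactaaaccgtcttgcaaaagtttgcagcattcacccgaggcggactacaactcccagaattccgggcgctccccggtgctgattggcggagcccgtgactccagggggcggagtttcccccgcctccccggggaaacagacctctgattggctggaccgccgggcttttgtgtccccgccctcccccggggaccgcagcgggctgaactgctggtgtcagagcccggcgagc
RPTOR: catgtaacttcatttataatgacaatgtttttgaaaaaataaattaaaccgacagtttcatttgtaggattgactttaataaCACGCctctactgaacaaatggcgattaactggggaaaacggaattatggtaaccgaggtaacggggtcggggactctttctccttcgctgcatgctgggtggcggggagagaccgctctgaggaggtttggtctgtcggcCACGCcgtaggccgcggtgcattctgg
The DDIT4 window held 3 such cores, starting 219, 125 and 53 bases before the start. The RPTOR window held 2, starting 168 and 27 bases before it, and the SESN2 window held 0. A core of this kind was present in 43.2% of 35116 RefSeq promoter windows of the same length, 3 or more in 7.76% and 2 or more in 19.4%. In the table of promoters, 9 of the 10 genes were matched, with 12 windows in all because SESN1 has 3 and TSC2 has 2. Of these 12 windows 6 held a core: those of DDIT4, RHEB, MTOR and RPTOR and 1 each of SESN1 and TSC2. An 8-base form of the composite element bound by ATF4, TGATGCAA on either strand, occurred in 0.772% of all windows and, among the matched members, only in 1 window of TSC2. The 2 cores of TSC2 start 114 and 113 bases before its start and overlap each other. A match describes these letters and shows no binding.

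DDIT4 was high in shSC cells at either O2 level, very low in shCHD4 cells at 20% O2, and intermediate in shCHD4 cells at 1% O2. Its normalised counts were 604 and 567 in the shSC libraries at 20% O2 and 667 and 716 in those at 1% O2. They were 39.0 and 36.6 in the shCHD4 libraries at 20% O2 and 216 and 213 at 1% O2. No pair of groups overlapped, so the 4 groups stood in the order shSC at 1%, shSC at 20%, shCHD4 at 1% and shCHD4 at 20% O2.

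**Figure D1:**
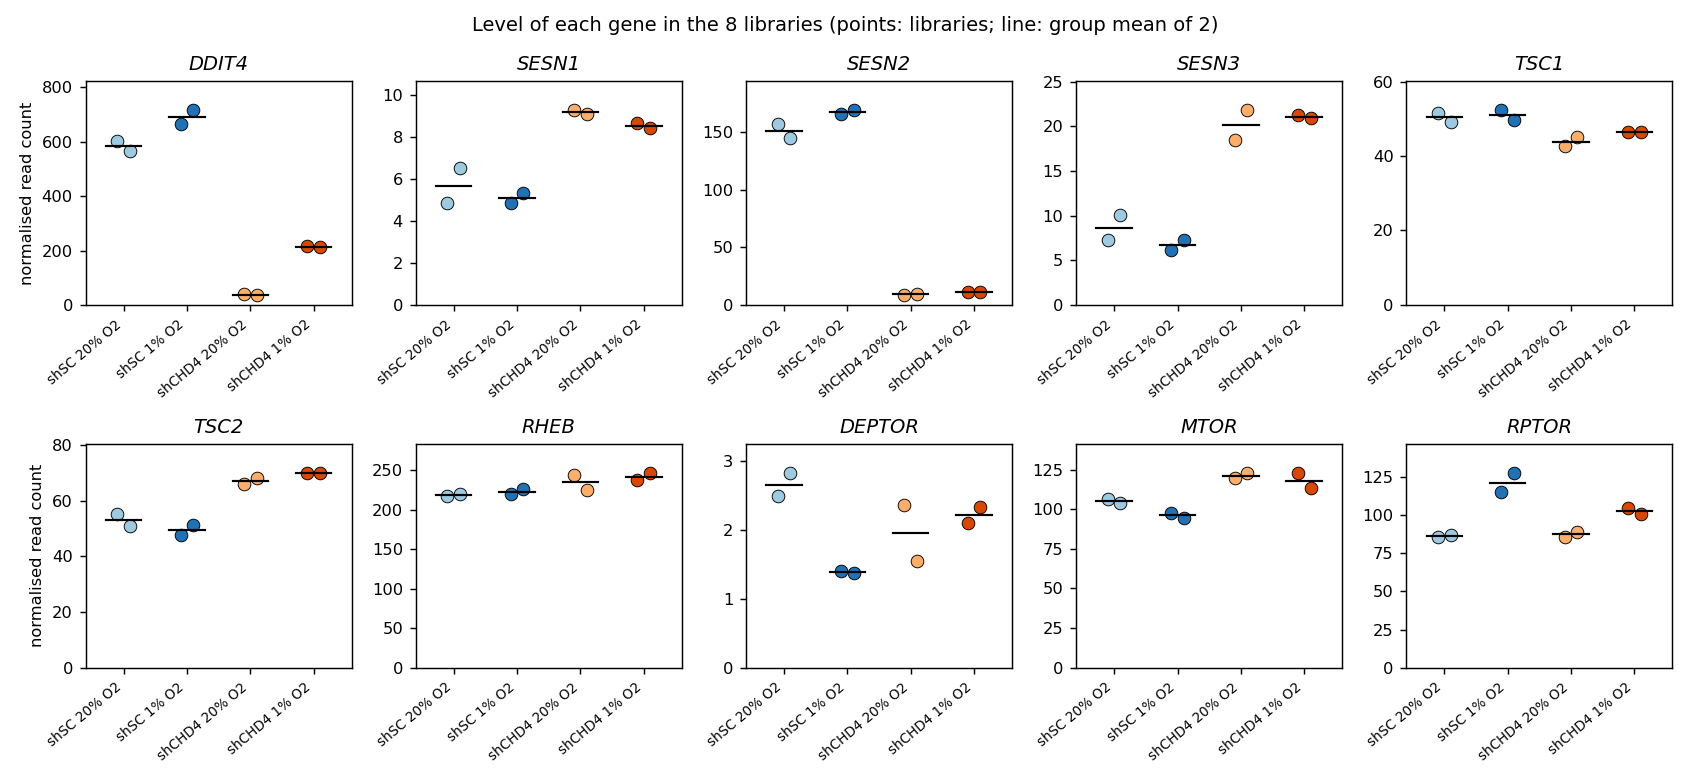
Normalised read count (vertical axis, from 0, scaled per gene) of the 10 genes in the 8 libraries, by group; points are libraries and lines are means of 2. DDIT4 and SESN2 were far lower in both shCHD4 groups than in both shSC groups, while SESN1, SESN3, TSC2 and MTOR were somewhat higher there.

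At 1% against 20% O2, DDIT4 was 5.62-fold higher under shCHD4 (log2 difference 2.49, SE 0.049) and 1.18-fold higher under shSC (0.24, SE 0.049). Only 3 of the 12645 genes had a larger log2 rise than DDIT4 under shCHD4, whereas 1758 did under shSC. The difference under shSC was 0.14 with quantile normalisation, where its rank by size went from 3363 to 6239, and 0.15 relative to neighbouring genes. The difference between these log2 responses, the interaction, was 2.25 (SE 0.069). By size it ranked 1 among the 12645 genes, and between 1 and 11 over the alternative analyses, in which it ran from 2.20 to 2.37. On the linear scale the responses were closer: the gain from 20% to 1% O2 was 106 normalised counts under shSC and 177 under shCHD4. The shCHD4 level at 1% O2 still reached only 36.6% of the shSC level at 20% O2.

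Between labels, DDIT4 in shCHD4 libraries was 6.45% of its shSC level at 20% O2 (log2 difference -3.94, SE 0.049) and 31.0% at 1% O2 (-1.68, SE 0.049). At 20% O2, 45 of the 12645 genes had a lower difference. By size, in either direction, DDIT4 ranked 55 there. That rank was 32 with a pseudocount of 1 and 137 with edgeR and with DESeq2. Its values rested on 2104 to 39965 reads per group. Over the 20 alternatives the difference at 20% O2 ran from -3.98 to -3.85. An antisense gene, DDIT4-AS1, shares 847 exonic bases with DDIT4 on the opposite strand in GENCODE release 29, and is not named in the table. No source used here states whether counting used strand, so reads of that transcript could be included.

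The 5 genes whose pattern was most like that of DDIT4, by the root mean square difference of centred log2 values over the 8 libraries, were STC1 (0.43), ERRFI1 (0.44), FAM83A (0.52), HOXB9 (0.62) and VLDLR (0.63). STC1 encodes the secreted hormone stanniocalcin, ERRFI1 a feedback inhibitor of EGFR, and VLDLR the very low density lipoprotein receptor. Each was higher at 1% O2 under both labels and lower under shCHD4 at both O2 levels, as DDIT4 was, with log2 differences between labels at 20% O2 from -3.65 for HOXB9 and ERRFI1 to -2.26 for VLDLR. Their Pearson's r with DDIT4 was 0.93 to 0.99 over the same 8 libraries, which fall into groups, so that r describes the group means. By Pearson's r alone the nearest 5 were PIM1, VLDLR, TSC22D1, MORF4L2 and SRSF5, of which 1, VLDLR, was among those above. By the root mean square measure SESN2 (0.96) was the nearest of the other 9 members, at rank 224.

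SESN2 shared the label difference of DDIT4 but little of its O2 response. It measured 158 and 145 in the shSC libraries at 20% O2, 166 and 169 in those at 1% O2, 8.98 and 9.24 in the shCHD4 libraries at 20% O2, and 10.9 and 11.4 in those at 1% O2. The shCHD4 libraries were thus far below every shSC library at either O2 level, and within each label the 1% O2 libraries lay just above the 20% O2 libraries. Its level under shCHD4 was 6.01% of the shSC level at 20% O2 (log2 difference -3.98, SE 0.060) and 6.65% at 1% O2 (-3.85, SE 0.060). With 1% O2 its log2 difference was 0.15 (SE 0.060) under shSC and 0.28 (SE 0.060) under shCHD4, and the interaction was 0.13 (SE 0.085). The difference under shSC was 0.089 without shSC 20% O2 replicate 2 and 0.21 without shSC 20% O2 replicate 1. It was past the threshold in the latter case and in 4 of 20 alternatives in all, edgeR and DESeq2 among them. The interaction was 0.073 without shSC 20% O2 replicate 1 and past the threshold in 0 of 19.

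SESN1 and SESN3, which are classically induced by p53 and FOXO factors, differed between labels in the opposite direction to SESN2. SESN1 measured 4.84 and 6.54 in shSC libraries at 20% O2 and 4.86 and 5.34 at 1% O2, against 9.28 and 9.11 in shCHD4 libraries at 20% O2 and 8.65 and 8.41 at 1% O2. All 4 shCHD4 libraries were above all 4 shSC libraries, by log2 differences of 0.66 (SE 0.12) at 20% O2 and 0.69 (SE 0.12) at 1% O2. With 1% O2, SESN1 differed by -0.13 (SE 0.12) under shSC, where the groups overlapped, and by -0.10 (SE 0.12) under shCHD4. The value under shSC was -0.33, past the threshold, without shSC 20% O2 replicate 1 and turned to 0.068 without replicate 2.

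SESN3 measured 7.24 and 10.1 in shSC libraries at 20% O2 and 6.18 and 7.22 at 1% O2, against 18.4 and 21.8 in shCHD4 libraries at 20% O2 and 21.2 and 21.0 at 1% O2. Again every shCHD4 library was above every shSC library, 2.27-fold at 20% O2 (log2 difference 1.18, SE 0.12) and 3.01-fold at 1% O2 (1.59, SE 0.12). With 1% O2 under shSC, SESN3 was lower by a log2 difference of -0.33 (SE 0.12), and this was past the threshold in 12 of 20 alternatives. It was -0.11 without shSC 20% O2 replicate 2, -0.23 without shSC 1% O2 replicate 1, and also missed the threshold without either shCHD4 1% O2 library. Under shCHD4 that difference was 0.071 (SE 0.12) and the groups overlapped. SESN1 and SESN3 rested on 117 to 264 and 173 to 632 reads per library, far fewer than SESN2 in shSC cells.

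Expressed per kilobase of exon, so that the 3 genes could be added, the sestrin sum was 46.2 ± 2.0 (SD, n = 2) in shSC cells at 20% O2 and 50.5 ± 0.799 at 1% O2. In shCHD4 cells it was 6.94 ± 0.254 at 20% O2 and 7.46 ± 0.0340 at 1% O2. SESN2 made up 95% ± 1.3 of the sum in shSC cells at 20% O2 and 96.1% ± 0.252 at 1% O2, against 38.1% ± 0.618 and 43.3% ± 1.07 in shCHD4 cells. The makeup under shCHD4 depended on the length used: with coding exons in place of all exons SESN2 made up 25.4% and 29.1% of the sum and SESN3 led with 53.6% and 52.7%. In shSC cells SESN2 led by either length, with 92.1% and 94.1% by coding exons. The size of the label difference in the sum also depended on the length. Per kilobase of coding exon the sum was 114 at 20% O2 and 124 at 1% O2 in shSC cells. In shCHD4 cells it was 25.0 and 26.7, a smaller relative drop than by all exons.

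**Figure D2:**
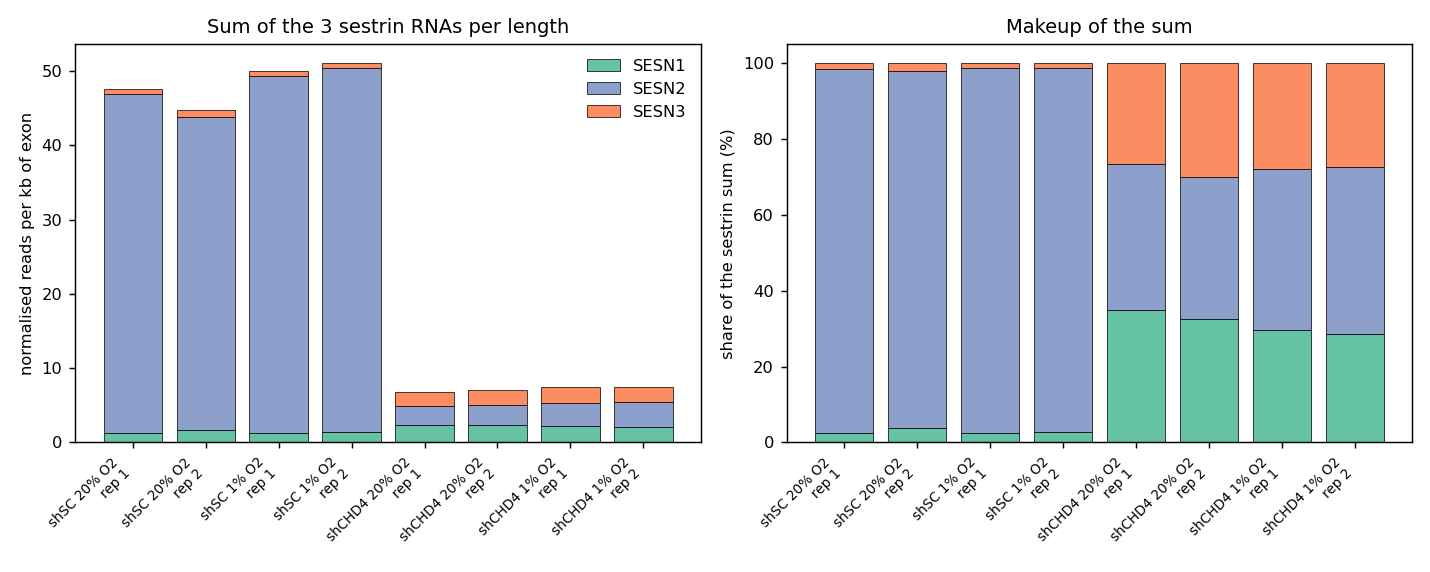
Left, sum of the 3 sestrin RNAs in normalised reads per kilobase of exon (stacked bars, 1 per library); right, the share of each gene in that sum in percent. The sum was 44.8 to 51.1 in shSC libraries and 6.76 to 7.48 in shCHD4 libraries, and SESN2 made up nearly all of it only in the former.

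The TSC genes, which encode the complex through which DDIT4 acts, differed far less than DDIT4. TSC2, the subunit with the GTPase-activating domain, measured 55.1 and 51.0 in shSC libraries at 20% O2, 47.5 and 51.4 at 1% O2, 65.9 and 68.2 in shCHD4 libraries at 20% O2, and 70.0 and 69.9 at 1% O2. It was higher under shCHD4 in every library, by log2 differences of 0.34 (SE 0.057) at 20% O2 and 0.50 (SE 0.057) at 1% O2. With O2 it differed by -0.099 (SE 0.057) under shSC, where the groups overlapped, and by 0.060 (SE 0.057) under shCHD4. TSC2 shares 778 exonic bases with PKD1 and 402 with NTHL1 on the opposite strand, both of which are in the table.

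TSC1, the stabilising subunit, went slightly the other way between labels. Its counts were 51.6 and 49.2 in shSC libraries at 20% O2 and 52.3 and 49.7 at 1% O2, against 42.8 and 45 in shCHD4 libraries at 20% O2 and 46.6 and 46.4 at 1% O2. The log2 difference between labels was -0.20 (SE 0.057) at 20% O2 and -0.13 (SE 0.057) at 1% O2, and it was -0.12 and -0.018, neither past the threshold, when every library was given the same total. At 20% O2 it also missed the threshold without shCHD4 20% O2 replicate 1 (-0.16). At 1% O2 it was past the threshold in 10 of 20 alternatives. With O2 the differences were 0.017 (SE 0.057) under shSC and 0.083 (SE 0.057) under shCHD4.

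RHEB, the GTPase that the TSC complex restrains, was nearly level across the study. It measured 217 and 219.6 in shSC libraries at 20% O2, 219 and 226 at 1% O2, 244 and 225 in shCHD4 libraries at 20% O2, and 237 and 246 at 1% O2. Its log2 differences were between 0.026 and 0.12 in the 4 pairwise comparisons, each with SE 0.046. Between labels, the median over the 40 nearest tested genes was 0.13 at 20% O2 and 0.15 at 1% O2. Relative to it RHEB stood at -0.034 and -0.035. At 1% O2 the difference was past the threshold in 16 of 20 alternatives, and missed it without shSC 1% O2 replicate 1 (0.098) and without shCHD4 1% O2 replicate 2 (0.092). GENCODE lists 3 processed pseudogenes of RHEB that are not named in the table, so its reads may have been split or shared with them.

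DEPTOR, the direct inhibitor of MTOR, was the least covered of the 10 genes, with 39 to 76 reads per library. Its counts were 2.48 and 2.82 in shSC libraries at 20% O2 and 1.39 and 1.38 at 1% O2, against 2.36 and 1.55 in shCHD4 libraries at 20% O2 and 2.10 and 2.33 at 1% O2. Under shSC the 1% O2 libraries were clearly below the 20% O2 libraries (log2 difference -0.74, SE 0.16), whereas under shCHD4 the groups overlapped (0.16, SE 0.16). The interaction was 0.90 (SE 0.23), past the threshold in 8 of 18 alternatives. Without shCHD4 20% O2 replicate 2 the difference under shCHD4 was -0.076 and the interaction 0.66. Between labels DEPTOR was at -0.38 (SE 0.16) at 20% O2 and 0.52 (SE 0.16) at 1% O2. The first was past the threshold in 7 of 19 alternatives, with neither edgeR nor DESeq2 among them, and was -0.14 without shCHD4 20% O2 replicate 2. The second was in 18 of 19, and was 0.46 and no longer past the threshold without shCHD4 1% O2 replicate 2. Its 40 nearest tested genes were lower under shCHD4, with median differences of -0.69 and -0.73, and relative to them DEPTOR stood at 0.32 and 1.25. What part the surrounding region has in these values was not tested.

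MTOR and RPTOR, the kinase and its scaffold, differed from each other in their pattern. MTOR measured 106 and 104 in shSC libraries at 20% O2, 97.8 and 94.7 at 1% O2, 119.9 and 123 in shCHD4 libraries at 20% O2, and 123 and 113 at 1% O2. It was higher in every shCHD4 library than in any shSC library, by log2 differences of 0.20 (SE 0.049) at 20% and 0.29 (SE 0.049) at 1% O2. Relative to neighbouring genes these were 0.077, no longer past the threshold, and 0.18. With 1% O2 it differed by -0.13 (SE 0.049) under shSC and -0.039 (SE 0.049) under shCHD4.

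RPTOR responded to O2 under both labels. Its counts were 85.5 and 87.0 in shSC libraries at 20% O2 and 115 and 128 at 1% O2, and 85.6 and 89.4 in shCHD4 libraries at 20% O2 and 105 and 101 at 1% O2. All 4 libraries at 1% O2 were above all 4 at 20% O2, and at 20% O2 the labels overlapped. The log2 difference with 1% O2 was 0.49 (SE 0.053) under shSC and 0.23 (SE 0.053) under shCHD4, and the interaction was -0.26 (SE 0.075), or -0.33 and past the threshold without shSC 1% O2 replicate 1. Between labels RPTOR was at 0.020 (SE 0.053) at 20% O2 and -0.24 (SE 0.053) at 1% O2. Leaving out replicate 1 of the shCHD4 group at 20% O2 brought the O2 difference under shCHD4 to 0.20, and leaving out replicate 1 of the 1% O2 group brought it to 0.21, neither past the threshold.

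**Figure D3:**
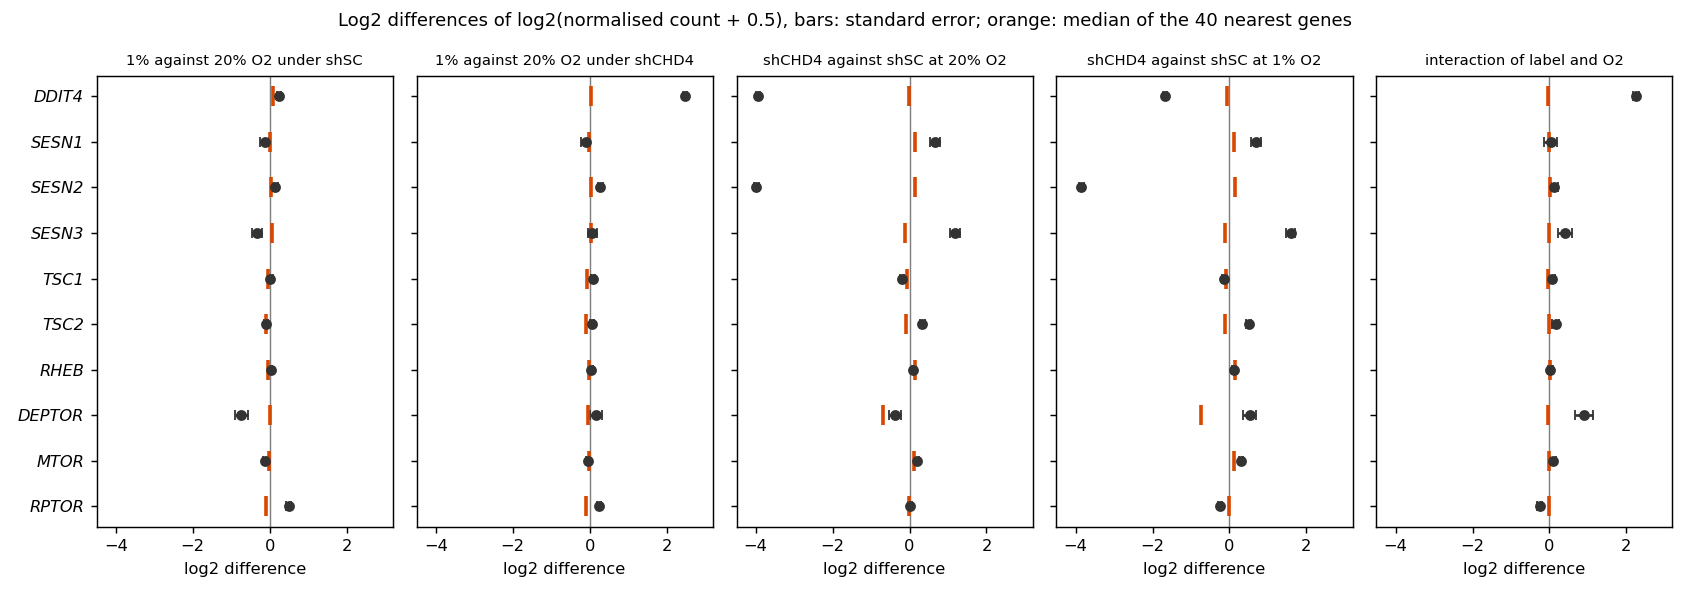
Log2 difference (horizontal axis, limma on log2(count + 0.5)) of the 10 genes in the 4 pairwise comparisons and the interaction; bars are standard errors and orange marks the median of the 40 nearest tested genes. DDIT4 and SESN2 stand near -4 between labels at 20% O2, DDIT4 alone stands near 2.5 for O2 under shCHD4, and the differences of TSC1, RHEB and MTOR are within 0.3 of 0 in each panel.

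Counted over the 10 genes, 4 were past the threshold with 1% O2 under shSC, against 35.2% of all genes tested: DDIT4 and RPTOR were higher (17.4% of all genes) and SESN3 and DEPTOR lower (17.9%). Under shCHD4 3 were (DDIT4, SESN2 and RPTOR, each higher), against 23% of all genes, 12.3% higher and 10.7% lower. Between labels at 20% O2 8 were, against 75.6% of all genes: SESN1, SESN3, TSC2 and MTOR higher (37%) and DDIT4, SESN2, TSC1 and DEPTOR lower (38.6%). At 1% O2 all 10 were, against 77.4% of all genes: DDIT4, SESN2, TSC1 and RPTOR lower (39.2%) and the other 6 higher (38.2%). For the interaction 2 were, DDIT4 and DEPTOR, both higher, against 4.36% of all genes, 2.21% higher and 2.14% lower. Past the threshold and 2-fold or more were 0 of the 10 with O2 under shSC (0.941% of all genes), 1 under shCHD4 (DDIT4, 0.506%), and 3 between labels at 20% O2 (13%) and at 1% O2 (14.2%), each time DDIT4, SESN2 and SESN3. For the interaction it was DDIT4 alone (0.198%).

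Groups of 2 did not overlap for 6 of the 10 genes with O2 under shSC, against 65.5% of all genes: 3 higher (31.1%) and 3 lower (34.3%). Under shCHD4 there were also 6, against 65.7%: 5 higher (32.2%) and 1 lower (33.5%), SESN1. Between labels there were 9 at 20% O2, against 86.4%: 5 higher (42.6%) and 4 lower (43.8%). At 1% O2 there were 10, against 88.8%: 6 higher (43.9%) and 4 lower (44.9%). Over the alternatives the counts past the threshold, in the order given, ran from 3 to 6, 2 to 4, 6 to 8, 7 to 10 and 1 to 3. The label comparisons share their libraries with the O2 comparisons, so these counts are not independent of each other. The median log2 difference of the 10 genes was -0.041 and 0.077 with O2 under shSC and shCHD4, and 0.060 and 0.21 between labels at 20% and 1% O2. Over all genes tested the medians were -0.011, -0.0037, -0.0091 and -0.0067.

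Per kilobase of exon, DDIT4 was the most abundant of the 10 RNAs in shSC cells at 20% O2, at 335 ± 15.1 normalised reads per kilobase (SD, n = 2), above RHEB at 90.2 ± 0.653 and SESN2 at 43.9 ± 2.50. RPTOR at 12 ± 0.146 and MTOR at 11.1 ± 0.160 followed, then TSC2 at 7.48 ± 0.411 and TSC1 at 4.94 ± 0.160. SESN1 (1.44 ± 0.304), DEPTOR (1.03 ± 0.0935) and SESN3 (0.846 ± 0.195) were lowest. In shCHD4 cells at 20% O2 the order at the top was RHEB at 96.7 ± 5.38, DDIT4 at 21.6 ± 0.956, MTOR at 12.8 ± 0.208 and RPTOR at 12.2 ± 0.372. SESN2 at 2.64 ± 0.0538 then stood among the other sestrins, with SESN1 at 2.33 ± 0.0313 and SESN3 at 1.97 ± 0.232. At 1% O2 in the same cells DDIT4, at 123 ± 1.38, was again above RHEB at 99.8 ± 2.68. These levels rest on exon lengths from GENCODE release 29, which is of another build than the table.

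The rest of the pathway was described with 9 lists of 122 genes, of which 121 were in the table and 118 were tested. With 1% O2 under shSC 29 rose and 14 fell, 36.4% of those tested against 35.2% of all genes, and under shCHD4 21 rose and 12 fell, 28% against 23%. Between labels at 20% O2, 37 were higher and 60 lower under shCHD4, 82.2% against 75.6% of all genes, with a list median of -0.19 against -0.0091 for all genes. These counts use limma's p-values adjusted over all genes. The counts of each list below stand beside the same shares of all genes. These were 35.2% with 1% O2 under shSC and 23% under shCHD4. Between labels they were 75.6% at 20% O2 and 77.4% at 1% O2. The lists were chosen with earlier results of these data known. The counts and shares are therefore a description, and nothing is read from their comparison with all genes. The p-values of the genes named from the lists are affected by how the genes were chosen.

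The integrated stress response acts through kinases that phosphorylate eIF2 and through the transcription factor ATF4. All 12 tested genes of the integrated stress response passed between labels at 20% O2, 9 lower and 3 higher, with a median log2 difference of -1.97. The share past the threshold was 100% of the list, against 75.6% of all genes. This is a description, because the list was chosen with earlier results of these data known. Of the 12 genes, 8 also differed by 2-fold or more, as did 13% of all genes. TRIB3, a pseudokinase and ATF4 target, went from 291 ± 13.9 to 20.1 ± 0.595 (limma adjusted p = 2.12e-20) and CHAC1, a glutathione-degrading enzyme and ATF4 target, from 84.2 ± 4.11 to 5.22 ± 0.453 (limma adjusted p = 2.18e-18). At 1% O2 the list again had 9 lower and 3 higher, with a median of -2.05. The 3 higher genes were the kinases EIF2AK1, EIF2AK2 and EIF2AK3, named after their values were seen. They phosphorylate eIF2 in response to heme deficiency or other stress, double-stranded RNA and misfolded protein. EIF2AK3 was at 0.68 at 20% O2 and 0.45 at 1% O2. Relative to neighbouring genes it was at 0.38 and 0.14, the latter not past the threshold, and EIF2AK2 at 0.25 and 0.28. For EIF2AK1, at 0.65 and 0.70, the 40 nearest tested genes had medians of 0.34 and 0.35. With 1% O2 under shSC 4 of the 12 rose and 1 fell, with EIF2AK3 at 0.24 (limma adjusted p = 0.00646) and EIF2AK2 at -0.34 (limma adjusted p = 4.08e-05), and under shCHD4 3 rose and 1 fell.

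**Figure D4:**
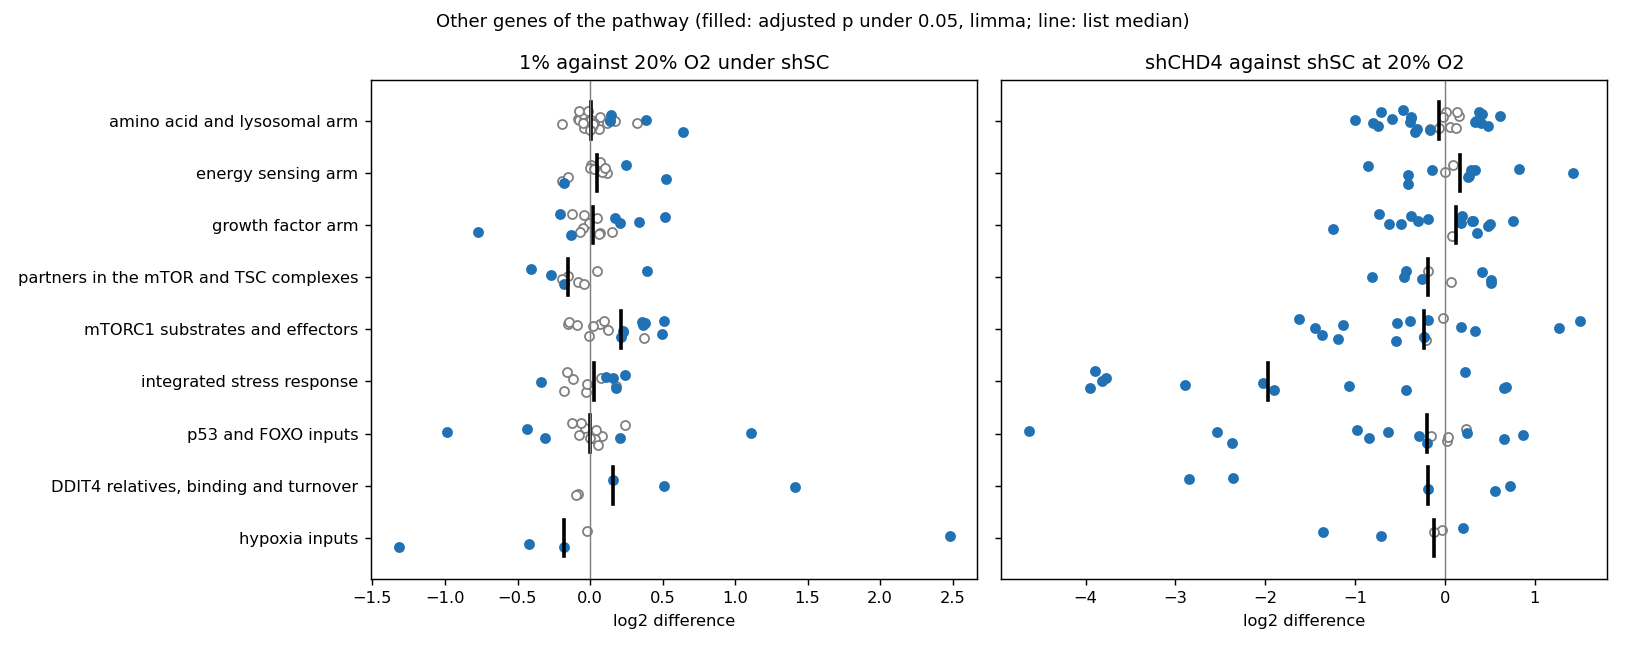
Log2 difference (horizontal axis) of each tested gene of the 9 pathway lists with 1% O2 under shSC (left) and between labels at 20% O2 (right, another scale); filled points have a limma adjusted p under 0.05 and vertical lines are list medians. The integrated stress response list has a median of -1.97 between labels at 20% O2, and the other 8 list medians lie within 0.25 of 0 there.

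Of 5 genes that are related to DDIT4, bind it or take part in its turnover, 3 rose with 1% O2 under shSC and the other 2 did not pass. At 20% O2, 3 were lower (DDIT4L, TXNIP and DDB1) and 2 higher under shCHD4, the ubiquitin ligase components BTRC (0.56, limma adjusted p = 4e-07) and CUL4A (0.73, limma adjusted p = 2.56e-11). BTRC, CUL4A and DDB1 are named here after their values were seen. The median label difference of the neighbouring genes at 20% O2 was 0.78 for CUL4A, so CUL4A was not higher than its neighbours. For DDB1, at -0.19, that median was -0.28, so DDB1 was not lower than its neighbours. For BTRC it was -0.028. What part the surrounding regions have in these values was not tested. DDIT4L, its paralog, rose with 1% O2 under shSC from 5.26 ± 0.291 to 14.9 ± 2.32 (log2 difference 1.41, limma adjusted p = 1.14e-06) and was 0.302 ± 0.11 under shCHD4 at 20% O2 (label difference -2.85, limma adjusted p = 4.58e-12, understated by the pseudocount). TXNIP, a glucose-responsive protein that binds DDIT4, rose under shSC from 1150.3 ± 14.4 to 1642 ± 55.4 (limma adjusted p = 5.74e-08). Under shCHD4 it went from 224 ± 5.77 to 427 ± 15.6, so that it was 5.14-fold lower between labels at 20% O2 (limma adjusted p = 7.46e-19). Among inputs from hypoxia, BNIP3, a mitophagy receptor that also binds RHEB, rose by 2.48 under shSC (limma adjusted p = 3.29e-16) and 2.18 under shCHD4 (limma adjusted p = 1.99e-15). At 20% O2 it did not differ detectably between labels (log2 difference -0.034, limma adjusted p = 0.586). HIF1A fell by 1.32 on the log2 scale with 1% O2 under shSC (limma adjusted p = 4.13e-12) and was lower between labels by 0.71 at 20% O2, from 589 ± 42.3 to 360 ± 13 (limma adjusted p = 1.95e-09). EPAS1, the gene of the HIF-2 alpha subunit, was lower under shCHD4 by a log2 difference of -1.35 (limma adjusted p = 3.08e-14).

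Of 15 tested genes of the p53 and FOXO inputs, 3 were higher and 8 lower under shCHD4 at 20% O2 (median -0.205). That was 73.3% of the list, against 75.6% of all genes. GDF15, a stress-induced cytokine, went from 164 ± 15.2 to 6.11 ± 0.301 (limma adjusted p = 3.81e-18) and TNFRSF10B, the death receptor DR5, from 678 ± 9.88 to 131 ± 0.205 (limma adjusted p = 4.16e-19). With 1% O2 under shSC 2 rose and 3 fell, among them CDKN1A, the p21 cell cycle inhibitor, which rose from 117 ± 5.76 to 254 ± 7.01 (limma adjusted p = 4.18e-12), and GDF15, which fell to 82.7 ± 13.2 (limma adjusted p = 2.95e-07). The list contains targets shared with the integrated stress response, GDF15 and TNFRSF10B among them.

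Among 17 mTORC1 substrates and effectors, 4 were higher and 11 lower under shCHD4 at 20% O2 (median -0.24). That was 88.2% of the list, against 75.6% of all genes. The translation repressors of the 4E-BP family went in opposite directions: EIF4EBP2 was higher, 261 ± 4.56 against 91.8 ± 0.533 (limma adjusted p = 5.93e-16), and EIF4EBP1, an ATF4 target, was lower, 44.2 ± 0.5 against 121 ± 4.96 (limma adjusted p = 5.94e-15). With 1% O2 under shSC 8 of the 17 rose and the other 9 did not pass. The adaptor gene GRB10, an mTORC1 substrate that dampens insulin signalling, rose by 0.50 (limma adjusted p = 1.31e-07) and ULK1, the autophagy-initiating kinase, by 0.51 (limma adjusted p = 1.05e-05). Under shCHD4 6 rose and 11 did not pass.

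In the growth factor arm 7 of 16 tested genes passed with 1% O2 under shSC, 4 up and 3 down. The insulin receptor substrates differed in direction, with IRS1 falling from 143 ± 2.58 to 83.3 ± 7.28 (limma adjusted p = 1.1e-08) and IRS2 rising from 87.5 ± 1.12 to 125 ± 2.42 (limma adjusted p = 3.34e-07). Between labels at 20% O2, 8 were higher and 7 lower, 93.8% of the list against 75.6% of all genes. The catalytic subunit PIK3CD was at -1.25 (limma adjusted p = 3.69e-13) and the regulatory subunit PIK3R2 at 0.76 (limma adjusted p = 1.33e-10). Of the other partners in the mTOR and TSC complexes, 1 of 9 rose and 3 fell with 1% O2 under shSC: MAPKAP1, a subunit of mTORC2, rose by 0.39 (limma adjusted p = 7.59e-06) and MLST8, which binds the kinase domain of MTOR in both complexes, was at -0.41 (limma adjusted p = 6.05e-05). Between labels at 20% O2, 3 were higher and 4 lower, 77.8% of the list against 75.6% of all genes. RICTOR, the scaffold of mTORC2, was at -0.81 (limma adjusted p = 1.29e-10). AKT1S1 (PRAS40), an inhibitory subunit of mTORC1, was at 0.51 (limma adjusted p = 3.68e-08), and at 0.083 (limma adjusted p = 0.164) relative to neighbouring genes.

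The energy sensing arm, AMPK and its activators, had 2 genes up and 1 down of 12 with 1% O2 under shSC. PRKAA2, a catalytic AMPK subunit, rose from 21.8 ± 2.38 to 31.4 ± 2.40 (limma adjusted p = 6.88e-05), and CAB39L, an adaptor of the upstream kinase LKB1, by 0.25 (limma adjusted p = 0.0344). The CAB39L call ended under 10 of 20 alternatives, where adjusted p reached 0.285 (limma, edgeR or DESeq2, by the alternative). Between labels at 20% O2, 6 were higher and 4 lower, 83.3% of the list against 75.6% of all genes. CAB39L was at 1.42 (limma adjusted p = 4.09e-11), and 0.56 relative to neighbouring genes, and its relative CAB39 at -0.86 (limma adjusted p = 3.01e-11). In the amino acid and lysosomal arm, to which the sestrins report, 4 of 27 tested genes rose with 1% O2 under shSC and the other 23 did not pass. The Rag GTPase gene RRAGA rose by 0.38 (limma adjusted p = 2.73e-05) and BMT2 (SAMTOR, a sensor of S-adenosylmethionine, listed as C7orf60) by 0.64 (limma adjusted p = 0.000317). Between labels at 20% O2, 7 were higher and 12 lower, 70.4% of the list against 75.6% of all genes. None of these 19 differed by 2-fold or more. Among them were FNIP1, a partner of folliculin, at -0.999 (limma adjusted p = 3.69e-12) and SEH1L, a subunit of GATOR2, at -0.47 (limma adjusted p = 4.69e-08), or -0.16 (limma adjusted p = 0.0116) relative to neighbouring genes.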

How the data were processed

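RNA of 8 libraries was measured by mRNA sequencing. The deposited values are named FPKM, but they are a signal: read numbers that the authors scaled by a single factor for every library, with no length term. All values (100%) came out as whole reads, within 0.01 reads, when divided by their library's step. The submitters' processing notes list edgeR, featureCounts, Picard 1.127, TopHat, FastQC 0.11.2, bcl2fastq 2.17 and build hg19. No source used here gives the annotation or the strand setting.

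Genes with a mean of 1 or more were tested with limma 3.58.1 (R 4.3.3) on log2(value + 0.5), fitting all 4 groups together with a trend in the variance, with Benjamini-Hochberg adjustment over 12645 genes at 0.05. An earlier analysis had found the values to be scaled reads before this test was chosen, so tests on counts were made alternatives. Alternatives were edgeR 4.0.16 and DESeq2 1.42.0 on the recovered reads, other pseudocounts, filters and scalings, a replicate block, and each library left out. Replicates were not duplicates: their chi-square ran from 2.12 to 4.48 per degree of freedom.

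The 10 genes and the lists were chosen with earlier results of these data known. The text names all 10 and CHD4, the 5 genes most like DDIT4, and per list the 2 genes with the smallest p for 1% O2 under shSC and the 2 for the label at 20% O2, provided that they passed and that their highest group mean was 2 or more. Lengths and overlaps are from GENCODE release 29 and promoters and gene order from RefSeq. The centring on 40 neighbouring genes and the coding lengths were added after seeing the data.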

Additional observations from a re-analysis of the deposited data

Results flagged for a closer look

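For 13 of the named genes the response to 1% O2 differed between the labels by the interaction term of the limma fit. Of the 118 tested genes of the pathway lists 10.2% passed for the interaction, against 4.36% of all genes tested. Nothing is read from the count of 13 or from these shares, because the lists were chosen with earlier results of these data known. DDIT4 (interaction 2.25, with 2.49 under shCHD4 and 0.24 under shSC) and DEPTOR (0.90, with 0.16 and -0.74) are members of the described list, so their values stand as a description. The call of DEPTOR held in 8 of 18 alternatives and that of DDIT4 in all 19.

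The other pathway genes were named for a small p with 1% O2 under shSC or between labels at 20% O2. Both differences enter the interaction, so its p-values for these genes are affected by how the genes were chosen. Among them, the log2 rise with 1% O2 was larger under shCHD4 for TXNIP (0.42, limma adjusted p = 0.000496). In counts its gain was larger under shSC, from 1150.3 to 1642, than under shCHD4, from 224 to 427. CHAC1 had an interaction of 1.02 (limma adjusted p = 1.48e-05), with 0.86 under shCHD4 and -0.16 under shSC. The rise was smaller under shCHD4 for CDKN1A (-0.93, limma adjusted p = 2.72e-07), DDIT4L (-1.01, limma adjusted p = 0.01), BNIP3 (-0.30, limma adjusted p = 0.0369), GRB10 (-0.24, limma adjusted p = 0.0364), IRS2 (-0.29, limma adjusted p = 0.0214) and MAPKAP1 (-0.33, limma adjusted p = 0.00993). For DDIT4L the shCHD4 means, 0.302 at 20% O2 and 0.557 at 1% O2, lie near the pseudocount of 0.5. Its log2 rise under shCHD4 is therefore understated. With a pseudocount of 0.1, with edgeR and with DESeq2 the DDIT4L interaction missed the threshold. Over the 19 alternatives it kept its sign but was as small as -0.64. The fall under shSC was smaller under shCHD4 for GDF15 (0.56, limma adjusted p = 0.0212) and IRS1 (0.75, limma adjusted p = 1.94e-05). RICTOR was at -0.18 under shSC and 0.20 under shCHD4 (0.38, limma adjusted p = 0.00669). Of 19 alternatives, these calls held in 8 for GRB10, 10 for BNIP3, 10 for GDF15, 13 for IRS2, 14 for DDIT4L, 16 for MAPKAP1, 17 for RICTOR and 18 for TXNIP, and in all 19 for CDKN1A, CHAC1 and IRS1.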

How the results depend on the processing

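Across 10 genes and 5 comparisons, 27 of 50 values were past the threshold, 25 of these kept their sign under every alternative and 18 stayed past it. Of all genes, 35.2% and 23% were past it for O2, 75.6% and 77.4% between labels, and 4.36% for the interaction. Nothing is read from the count of 27. The 2 sign changes came with centring on neighbouring genes: RHEB between labels at 1% O2 went to -0.035 and DEPTOR at 20% O2 to 0.32. The same centring turned IRS2 (-0.61) and MAPKAP1 (0.20) between labels at 20% O2, and TNFRSF10B for 1% O2 under shSC (-0.022).

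For 1% against 20% O2 under shCHD4, 2903 genes passed, against 1920 with no filter on low values, 1815 with no variance trend and 1326 (without shCHD4 1% O2 replicate 1) to 3468 (without shSC 20% O2 replicate 2) with 1 library left out. For the interaction of label and O2, 551 passed, against 155 with no filter, 155 with no variance trend and 245 to 994 with 1 library left out. The cause was not tested.

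With the same total per library, the share of higher calls went from 49.3% to 32.7% for 1% against 20% O2 under shSC, from 53.5% to 42.5% for 1% against 20% O2 under shCHD4, and from 50.8% to 67.4% for the interaction of label and O2. The median of all genes for shCHD4 against shSC at 1% O2 went from -0.0067 to 0.10.

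The labels do not pair the libraries. The log2 difference between replicates 1 and 2 of a group was compared between groups, over genes with a mean of at least 10. Pearson's r of these differences ran from -0.246 to 0.215 over the pairs of groups. With the replicate number as a block, 4370 genes passed for 1% against 20% O2 under shSC (4456 without it), 2795 for 1% against 20% O2 under shCHD4, 9536 for shCHD4 against shSC at 20% O2 (9559), 9755 for shCHD4 against shSC at 1% O2 (9782) and 536 for the interaction of label and O2.

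Counts in the pathway lists stayed within 1.5 times in 781 of 891 cases. A fit of only the libraries compared could not be made for the interaction, and DEPTOR, the gene with least depth, has no value under a minimum mean of 5.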
